A study of Homo sapiens with 6 samples.

Results

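The genes described here are 10 markers and transcription factors of epithelial-mesenchymal transition (EMT): CDH1, CDH2, VIM, CTNNB1, FN1, SNAI1, SNAI2, ZEB1, ZEB2 and TWIST1. They were taken by name from a table of 67140 Ensembl gene identifiers, and all 10 were found. EMT is the programme by which epithelial cells loosen their junctions and take on the shape and motility of mesenchymal cells. E-cadherin holds epithelial cells together, and transcription factors of the Snail, ZEB and Twist families bind E-box motifs in its promoter and in those of other epithelial genes and repress them. Squamous carcinoma cells often keep epithelial and mesenchymal genes on at the same time, and the miR-200 family and miR-205 hold ZEB1 and ZEB2 down in epithelial cells.

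Poly-A RNA of KYSE150, an established line of human esophageal squamous cell carcinoma (ESCC), was sequenced in 3 samples carrying a control hairpin (shCtrl) and 3 samples carrying a hairpin against the lncRNA AC007128.1 (shAC007128.1). Both groups were stable lines made with lentivirus and puromycin and grown in RPMI medium with 10% fetal bovine serum, and 1 hairpin and 1 control were compared. The labels do not say whether the 3 samples of a group came from separate cultures, so p-values measure only the spread between these samples, which may be technical. The comparison asked how EMT genes stood in KYSE150 cells after AC007128.1 was targeted.

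Total counts per sample ranged from 55764405 to 78610457, and 3 counts, taken as the detection floor of a sample, correspond to 0.0382 to 0.0538 CPM (the count scaled to a fixed library size, with TMM factors where levels are given). The targeted gene AC007128.1 (ENSG00000229970) had 69, 33 and 53 counts in the shCtrl samples and 18, 37 and 15 in the shAC007128.1 samples. These were 0.712 ± 0.273 CPM (SD, n = 3) and 0.417 ± 0.224 CPM (SD, n = 3), the groups overlapped, and the log2 fold change (log2FC, shAC007128.1 over shCtrl) was -0.77 (standard error, SE, 0.51, adjusted p = 0.271 by edgeR's quasi-likelihood test). A difference in the targeted gene was not detectable at this depth. Of 8 squamous epithelial markers, all 8 passed the filter on low counts, and their summed level was 1475 to 1549 CPM in shCtrl cells and 2275 to 2872 CPM in shAC007128.1 cells, with 5 higher, 1 lower and 2 not passing the test. Of 11 markers of leukocytes, endothelium and fibroblasts, 7 passed the filter, and their summed level was 78.2 to 85.4 CPM and 40.3 to 45.1 CPM. In that list 2 rose, 2 fell and 3 did not pass the test. The fibroblast markers COL1A1 and LUM rose, with log2FC values of 0.33 and 2.14 (edgeR adjusted p = 0.0462 and 0.00193). CD68 and the fibroblast marker PDGFRB fell, with log2FC values of -1.87 and -1.60 (edgeR adjusted p = 0.000458 and 0.0474). So 75% of the tested markers of the first list and 57.1% of the second passed, beside 40.8% of all genes tested. CD68, at 63.8 ± 4.47 and 17.5 ± 5.27 CPM (SD, n = 3), made up most of the summed level of the second list in shCtrl cells only. In shAC007128.1 cells COL1A1 stood at a like level, 17.5 ± 0.983 CPM (SD, n = 3). CD68 shares 1765 of its 2163 exonic bases with the lncRNA ENSG00000264772 on the same strand, where their reads cannot be told apart. The defining leukocyte marker PTPRC was at 0 to 9 counts. The endothelial marker CDH5, which did not pass the filter, was at 10 to 44 counts in shCtrl and at 0 in every shAC007128.1 sample. The endothelial markers PECAM1 and VWF had log2FC values of 1.49 and -1.43 and did not pass the test (edgeR adjusted p = 0.251 and 0.101). The part of these other-cell markers in the results below was not tested. In bulk RNA, fewer cells expressing a gene and less RNA per cell cannot be told apart.

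The microRNAs that act on ZEB1 are shown first because the host transcripts of 3 of them are measured in this table and are described with ZEB1 further on. Each line gives the mature sequence, 5′ to 3′, from RefSeq on GRCh38.p14, with the seed (bases 2 to 8) in capitals.
hsa-miR-200b-3p: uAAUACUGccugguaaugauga
hsa-miR-200c-3p: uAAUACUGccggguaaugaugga
hsa-miR-429: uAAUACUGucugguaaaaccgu
hsa-miR-200a-3p: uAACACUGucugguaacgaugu
hsa-miR-141-3p: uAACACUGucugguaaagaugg
hsa-miR-205-5p: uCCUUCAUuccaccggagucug
The first 3 share the seed AAUACUG, the next 2 share AACACUG, and miR-205-5p has CCUUCAU. miR-200c and miR-141 lie on chromosome 12 (chr12:6963742-6963764 and chr12:6964155-6964176, plus strand) and miR-205 on chromosome 1 (chr1:209432166-209432187, plus strand). The mature microRNAs themselves were not measured in these libraries.

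ZEB1 carries matches to all 3 seeds. In the 3′ UTR of its canonical transcript (GENCODE v44, hg38, 2540 bases, plus strand), the letters CAGTATT occurred 6 times, CAGTGTT 3 times and ATGAAGG 1 time on the transcript strand. The match for each seed nearest the start of the UTR is printed with its neighbouring bases, the match in capitals.
ZEB1 chr10:31527623-31527644: tttatcttatCAGTATTatcac
ZEB1 chr10:31528036-31528057: tcatcagaatCAGTGTTtgtga
ZEB1 chr10:31528072-31528093: gtggtaacatATGAAGGatatg
Of 4510 3′ UTRs at least as long, each read over its first 2540 bases, 27.6% held CAGTATT and 1 (ZEB1 itself) held as many as 6. CAGTGTT was present in 30.1%, with 0.95% holding 3 or more, and ATGAAGG in 18.2%. A match is a description of the sequence and does not show that the site is used.

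Across the 10 genes, 4 rose in shAC007128.1 cells (ZEB1, VIM, CTNNB1 and CDH1), 1 fell (SNAI2), 3 were tested and did not pass (FN1, SNAI1 and TWIST1), and 2 could not be tested (CDH2 and ZEB2). A gene rose or fell where its Benjamini-Hochberg adjusted p was at most 0.05 in edgeR's quasi-likelihood test over 19254 genes. In that test 21.0% of all genes rose and 19.8% fell, 40.8% in either direction, so 5 of 8 tested EMT genes is to be read against a wide background. With a fold of at least 2 as well, 2 of the 8 remained (ZEB1 and SNAI2), where 15.7% of all genes did. In 7 of the 8 the groups did not overlap, as in 55.2% of all genes tested. The median log2FC was 0.14 over the 8 and -0.02 over all genes tested. The detection floor of 3 counts was reached by 3 genes: ZEB2 in every sample, CDH2 in 3 of 6 samples and SNAI1 in 1 of 6. If 4 counts stand for 1 fragment, as considered with SNAI1 below, the floor is 12 counts. CDH2 is then at or under it in every sample, and SNAI1 in every shAC007128.1 sample.

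**Figure D1:**
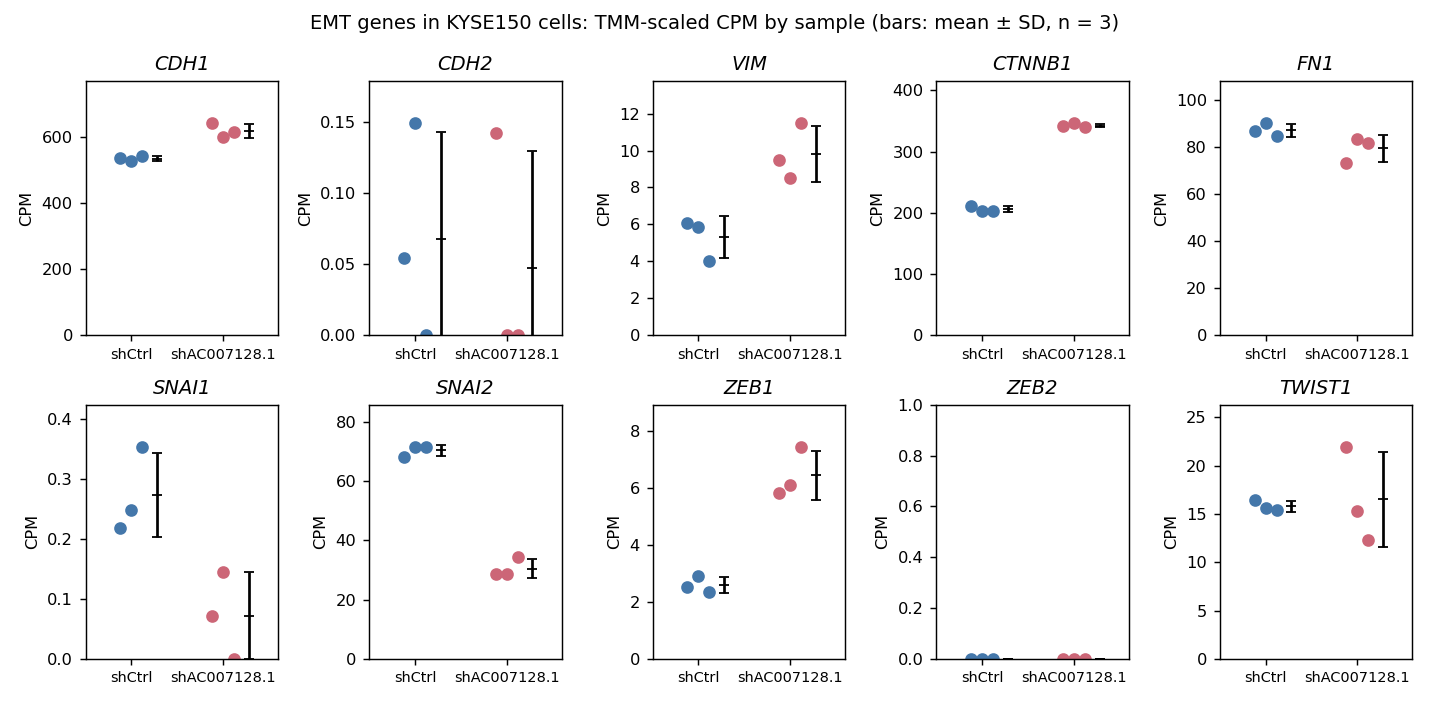
TMM-scaled CPM (vertical axis, linear, own scale for each gene) of the 10 EMT genes in 3 shCtrl samples (blue) and 3 shAC007128.1 samples (red), with bars for mean ± SD (n = 3). The shAC007128.1 points lie above the shCtrl points for CDH1, VIM, CTNNB1 and ZEB1 and below them for FN1, SNAI1 and SNAI2, TWIST1 overlaps, CDH2 stays under 0.15 CPM and ZEB2 is at 0.

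CDH1, which encodes E-cadherin, was the most abundant of the 10 genes per kilobase and rose slightly. CDH1 (ENSG00000039068, chr16:68737292-68835537, plus strand, hg38) stood at 536.5, 526.5 and 542.0 CPM in shCtrl cells and at 641.9, 600.2 and 617.1 CPM in shAC007128.1 cells. The lowest shAC007128.1 sample lay above the highest shCtrl sample. The lncRNA ENSG00000260798 on the opposite strand, which shares 347 exonic bases with CDH1, had at most 3 counts in any sample. From 535 ± 7.84 to 620 ± 21.0 CPM (SD, n = 3), the level reached 116% of control, a log2FC of 0.21 (SE 0.06, adjusted p = 0.0187 by edgeR's quasi-likelihood test). This call was kept under 7 of 15 alternatives and lost, among others, with library size as the only scaling (edgeR adjusted p = 0.0746), where the log2FC was 0.14. Without shCtrl replicate 1, 2 or 3 the edgeR adjusted p was 0.0744, 0.0926 and 0.0677, and without shAC007128.1 replicate 1 it was 0.0548.

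CDH2, which encodes the mesenchymal N-cadherin, was close to the floor. CDH2 (ENSG00000170558, chr18:27932879-28177946, minus strand) had 4, 12 and 0 counts in shCtrl cells and 8, 0 and 0 in shAC007128.1 cells. That is 16 against 8 counts over the 3 libraries of each group, too few to pass the filter. Its levels, 0.068 ± 0.075 and 0.047 ± 0.082 CPM (SD, n = 3), overlapped (two-sided exact permutation p = 0.7), and no difference was detectable at this depth.

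CTNNB1, which encodes β-catenin, the protein that links cadherins to the actin cytoskeleton and carries WNT signals to the nucleus, rose in shAC007128.1 cells. CTNNB1 (ENSG00000168036, chr3:41194741-41260096, plus strand) had 211, 203 and 203 CPM in shCtrl cells and 341, 346 and 340 CPM in shAC007128.1 cells. Both groups were tight and far apart. The mean went from 206 ± 4.83 to 342.5 ± 3.12 CPM (SD, n = 3), 167% of control, with a log2FC of 0.74 (SE 0.06, adjusted p = 0.00011 by edgeR's quasi-likelihood test). Under 15 alternatives it ranged from 0.66 to 0.75 and passed in all 15.

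VIM, which encodes the intermediate filament vimentin, rose from a low level. VIM (ENSG00000026025, chr10:17228241-17237593, plus strand) stood at 6.07, 5.84 and 4.01 CPM in shCtrl cells and at 9.50, 8.50 and 11.5 CPM in shAC007128.1 cells. All 3 shAC007128.1 samples lay above the shCtrl samples. The mean went from 5.31 ± 1.13 to 9.83 ± 1.51 CPM (SD, n = 3), 185% of control, a log2FC of 0.89 (SE 0.21, adjusted p = 0.0123 by edgeR's quasi-likelihood test). It passed under 14 of 15 alternatives and not against a fold of 1.5 (glmTreat in edgeR, adjusted p = 0.150). The antisense lncRNA VIM-AS1 (ENSG00000229124) shares 656 exonic bases with VIM. It had 64, 109 and 122 counts in shCtrl and 157, 182 and 168 in shAC007128.1, a log2FC of 1.16 (SE 0.29, edgeR adjusted p = 0.0153), which missed the threshold without shCtrl replicate 2 (edgeR adjusted p = 0.0512) and against a fold of 1.5 (0.0931). The use of strand in the counting is not given in the sources used here, so reads from VIM and VIM-AS1 cannot be told apart in their shared bases.

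FN1, which encodes the matrix glycoprotein fibronectin, did not pass the test. FN1 (ENSG00000115414, chr2:215360440-215436073, minus strand) had 86.8, 90.0 and 84.6 CPM in shCtrl cells and 73.0, 83.5 and 81.7 CPM in shAC007128.1 cells. The groups did not overlap, with the nearest samples at 84.6 and 83.5 CPM. The means were 87.1 ± 2.72 and 79.4 ± 5.59 CPM (SD, n = 3), with a log2FC of -0.13 (SE 0.08, adjusted p = 0.231 by edgeR's quasi-likelihood test), and FN1 passed under 0 of 15 alternatives.

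SNAI2, which encodes the E-box repressor Slug, was the one EMT gene that fell. SNAI2 (ENSG00000019549, chr8:48917598-48921740, minus strand) had 68.2, 71.5 and 71.5 CPM in shCtrl cells and 28.6, 28.5 and 34.3 CPM in shAC007128.1 cells. The highest shAC007128.1 sample had less than the lowest shCtrl sample by a wide margin. The mean went from 70.4 ± 1.90 to 30.5 ± 3.33 CPM (SD, n = 3), 43.3% of control, and the log2FC was -1.21 (SE 0.10, adjusted p = 0.00014 by edgeR's quasi-likelihood test). It passed under 15 of 15 alternatives, from -1.31 to -1.16. Of all genes tested, 11.6% had a lower log2FC.

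SNAI1, which encodes Snail, another E-box repressor of CDH1, was near the floor. SNAI1 (ENSG00000124216, chr20:49982980-49988886, plus strand) had 16, 20 and 24 counts in shCtrl cells and 4, 8 and 0 in shAC007128.1 cells. The groups did not overlap, at 0.274 ± 0.0709 and 0.0723 ± 0.0728 CPM (SD, n = 3). The log2FC of -1.90 had a SE of 0.94 and did not pass (adjusted p = 0.151 by edgeR's quasi-likelihood test). All 6 counts are multiples of 4, while of all counts from 1 to 20 in a sample 29.1% to 30.6% were, where 25% of those numbers are. If 4 counts stand for 1 fragment, the groups rest on 15 and 3 fragments. The alternatives that kept SNAI1 gave log2FC values from -2.89 to -1.33 and passed in 0 of 13.

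ZEB1, a zinc finger repressor of epithelial genes, had the largest rise of the 10. ZEB1 (ENSG00000148516, chr10:31318495-31529814, plus strand) had 185, 234 and 160 counts in shCtrl cells and 327, 335 and 432 in shAC007128.1 cells, or 2.53, 2.91 and 2.36 against 5.82, 6.10 and 7.43 CPM. The lowest shAC007128.1 sample had more than the highest shCtrl sample by a wide margin. The mean went from 2.60 ± 0.282 to 6.45 ± 0.863 CPM (SD, n = 3), 248% of control. The log2FC of 1.31 (SE 0.18, adjusted p = 0.00114 by edgeR's quasi-likelihood test) ranged from 1.19 to 1.40 under 15 alternatives and passed in all 15. Of all genes tested, 4.2% had a higher log2FC. ZEB1-AS1, an antisense lncRNA that shares 396 exonic bases with ZEB1, had 6.90 ± 0.809 and 5.36 ± 2.36 CPM (SD, n = 3) with overlapping groups (log2FC -0.37, SE 0.30, edgeR adjusted p = 0.371). In the bases they share, the reads of ZEB1 and ZEB1-AS1 cannot be told apart either.

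ZEB2, the second ZEB repressor, had 0 counts in all 6 samples. ZEB2 (ENSG00000169554, chr2:144364364-144521057, minus strand) could therefore not be tested, and 0 counts allow a level of up to 0.0382 to 0.0538 CPM, depending on the sample, or 0.153 to 0.215 CPM if 4 counts stand for 1 fragment. ZEB2-AS1 was also at 0 in all 6. These limits cover counting error only.

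TWIST1, a basic helix-loop-helix factor of mesoderm and EMT, did not differ beyond its spread. TWIST1 (ENSG00000122691, chr7:19020991-19117636, minus strand) had 16.4, 15.6 and 15.4 CPM in shCtrl cells and 21.9, 15.3 and 12.3 CPM in shAC007128.1 cells. The shAC007128.1 samples were spread on both sides of the shCtrl samples. The means were 15.8 ± 0.547 and 16.5 ± 4.92 CPM (SD, n = 3), with a log2FC of 0.06 (SE 0.21, adjusted p = 0.827 by edgeR's quasi-likelihood test). The sign rested on shAC007128.1 replicate 1, without which it was -0.20, and it was -0.01 with library size as the only scaling. For the 7 genes whose groups did not overlap, the two-sided exact permutation test over samples gave 0.1, the smallest p that 3 against 3 allow.

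**Figure D2:**
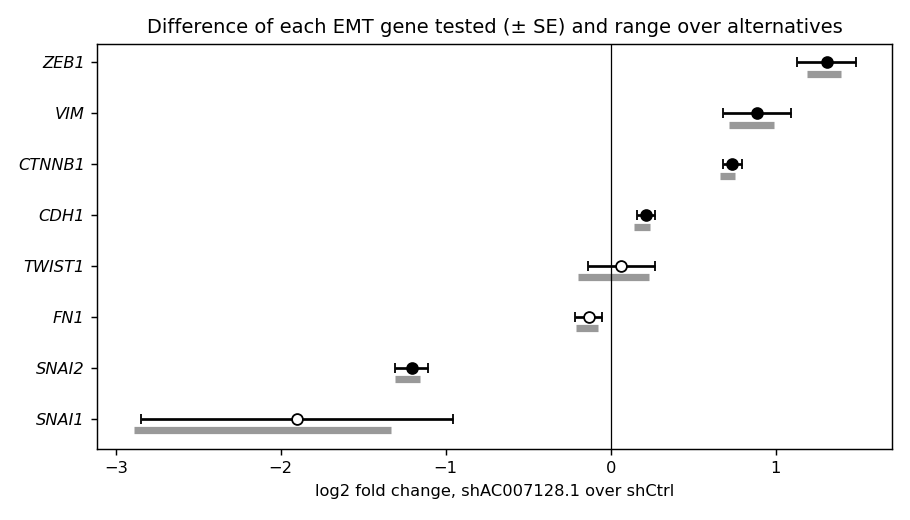
Log2 fold change, shAC007128.1 over shCtrl (horizontal axis), of the 8 EMT genes tested, with bars for the SE, filled points where the edgeR adjusted p is at most 0.05, and grey bars for the range over the alternative settings. The ranges of ZEB1, VIM, CTNNB1 and CDH1 lie above 0, those of SNAI2, SNAI1 and FN1 below 0, and that of TWIST1 spans 0.

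Set against each other per kilobase of exon, the 10 genes covered a wide range in both groups. In shCtrl cells CDH1 led at 88.1 ± 1.29 CPM per kilobase (SD, n = 3), followed by SNAI2 at 21.4 ± 0.580 and CTNNB1 at 17.5 ± 0.410. TWIST1 (7.90 ± 0.274), FN1 (5.06 ± 0.158) and VIM (1.03 ± 0.218) came next, then ZEB1 at 0.300 ± 0.0326, SNAI1 at 0.161 ± 0.0416, CDH2 at 0.00792 ± 0.00879 and ZEB2 at 0. In shCtrl cells the ranges of neighbours in this order did not overlap, down to CDH2 and ZEB2, which both held samples at 0.

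In shAC007128.1 cells CTNNB1 (29.1 ± 0.265 CPM per kilobase, SD, n = 3) and SNAI2 (9.29 ± 1.02) had changed places behind CDH1 (102 ± 3.45), and the other places were as before. This change of places depended on the length used. With the longest transcript in place of all exons, CTNNB1 ranked 2 and SNAI2 ranked 3 in both groups. By all exons, TWIST1 (8.27 ± 2.47) overlapped SNAI2 in shAC007128.1 cells, and ZEB1 stood at 0.746 ± 0.0997 against VIM at 1.90 ± 0.292. SNAI1 (0.0424 ± 0.0427) overlapped CDH2 (0.00553 ± 0.00957). Among 13591 protein-coding genes that passed the filter, the per-kilobase level of SNAI2 moved from percentile 85.9 to 64.7 and that of ZEB1 from 12.8 to 20.8. CDH1 was at 97.6 and 97.9, CTNNB1 at 82.3 and 89.4, and VIM at 22.1 and 29.6. So SNAI2 remained the most abundant of the 5 Snail, ZEB and Twist transcripts in both groups, though above TWIST1 by less than the spread in shAC007128.1 cells.

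Ratios within a sample do not depend on the scaling between samples. Their size does depend on the gene lengths used, here all exons, while the log2 difference between the groups does not. The log2 ratio of CDH1 to VIM per kilobase was 6.24, 6.26 and 6.85 in shCtrl cells and 5.85, 5.91 and 5.52 in shAC007128.1 cells, so CDH1 exceeded VIM 75.3 to 115 times in the first and 45.8 to 60.1 times in the second. Both genes rose, with the larger log2FC in VIM. A pair of further ratios was chosen after their values were seen, and they are given as descriptions. SNAI2 exceeded ZEB1 64.8 to 79.9 times in shCtrl and 12.2 to 13.0 times in shAC007128.1 cells. CTNNB1 was at 0.193 to 0.203 of CDH1 in shCtrl and at 0.275 to 0.298 in shAC007128.1 cells. None of these 3 ratios overlapped between the groups. SNAI2 to SNAI1 was 105 to 162 in shCtrl cells and could not be formed in the shAC007128.1 sample where SNAI1 was at 0. CDH1 to CDH2 could be formed in only 3 of 6 samples.

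**Figure D3:**
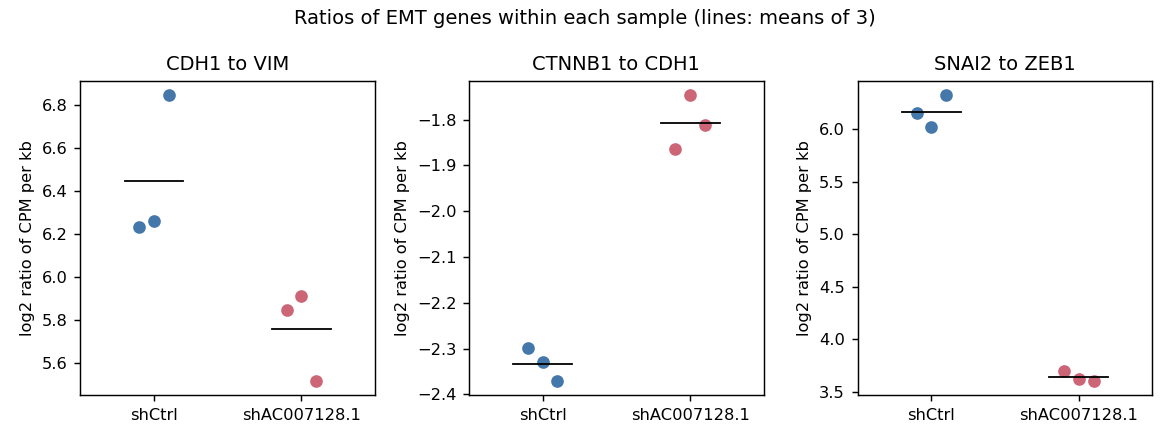
Log2 ratio of CPM per kilobase within each sample (vertical axis, which does not start at 0) for CDH1 to VIM, CTNNB1 to CDH1 and SNAI2 to ZEB1, with 1 point a sample and lines for the means of 3. CDH1 to VIM and SNAI2 to ZEB1 are lower, and CTNNB1 to CDH1 is higher, in every shAC007128.1 sample than in every shCtrl sample.

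The host transcripts of miR-205 and of miR-200c and miR-141 fell, and a host of miR-200b, miR-200a and miR-429 was not analysed here. MIR205HG, the host gene of miR-205, had 263, 259.5 and 256 CPM in shCtrl cells and 60.4, 61.1 and 51.1 CPM in shAC007128.1 cells. The mean went from 260 ± 3.52 to 57.5 ± 5.55 CPM (SD, n = 3), a log2FC of -2.17 (SE 0.09, adjusted p = 1.6e-05 by edgeR's quasi-likelihood test). MIR200CHG, the host gene of miR-200c and miR-141, had 224, 331 and 237 counts in shCtrl and 40, 35 and 46 in shAC007128.1. Its level went from 3.56 ± 0.530 to 0.713 ± 0.0771 CPM (SD, n = 3), a log2FC of -2.31 (SE 0.22, edgeR adjusted p = 0.000245). Of the 9 noncoding neighbours and hosts listed, 6 were found in the table and 4 passed the filter, with 1 higher (VIM-AS1), 2 lower and 1 not passing (75% passing, beside 40.8% of all genes). The level of a host transcript is not that of the mature microRNA, and whether these falls bear on ZEB1 was not tested.

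Genes of epithelial adhesion moved both ways. Of the 25, all tested, 10 rose, 5 fell and 10 did not pass, so that 60% passed, beside 40.8% of all genes, with a median log2FC of 0.26, beside -0.02 over all genes tested. EPCAM, an epithelial adhesion molecule, went from 157 ± 7.97 to 297 ± 5.72 CPM (SD, n = 3), a log2FC of 0.92 (SE 0.07, edgeR adjusted p = 8.27e-05). F11R, a tight junction protein, rose by 0.77 on the log2 scale and DSC2, a desmosomal cadherin, by 0.87 (edgeR adjusted p = 0.00071 and 0.000846). F11R shares 1853 of its 5061 exonic bases with ENSG00000270149 on the same strand, where their reads cannot be told apart. Against a fold of 1.5, F11R did not pass and DSC2 did (glmTreat in edgeR, adjusted p = 0.0765 and 0.0343). With a fold of at least 2, 0 of the 25 rose and 2 fell, where 15.7% of all genes passed in either direction. The 2 were CLDN7 at -1.16 and CLDN1 at -3.85 on the log2 scale, both named after their values were seen. CLDN1 had 0, 0 and 8 counts in the shAC007128.1 samples. The tight junction gene CLDN4, also named after its values were seen, had 33286, 19 and 884 counts in shCtrl and 36622, 34924 and 178 in shAC007128.1. That spread within each group was far wider than any difference between them (edgeR adjusted p = 0.616).

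Regulators that keep epithelial identity moved both ways. Of 16, 15 were tested, 1 rose, 7 fell and 7 did not pass, so that 53.3% passed, beside 40.8% of all genes, and the median log2FC was -0.27. EHF, an epithelial ETS factor, had 15.9, 16.0 and 16.3 CPM in shCtrl and 3.93, 4.13 and 4.85 CPM in shAC007128.1 cells, with a log2FC of -1.90 (SE 0.13, edgeR adjusted p = 7.9e-05). KLF4, a zinc finger factor of the suprabasal epithelium, went from 65.6 ± 1.40 to 35.5 ± 2.64 CPM (SD, n = 3), a log2FC of -0.88 (edgeR adjusted p = 0.000274).

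Mesenchymal genes other than VIM, FN1 and CDH2 moved both ways. Of 35, 23 passed the filter, of which 6 rose, 7 fell and 10 did not pass (56.5% passing, beside 40.8% of all genes), with a median log2FC of -0.17. INHBA, the activin A subunit, went from 11.8 ± 1.08 to 2.46 ± 0.310 CPM (SD, n = 3), a log2FC of -2.26 (SE 0.16, edgeR adjusted p = 8.57e-05). COL6A3, a collagen chain, had 60, 40 and 60 counts in shCtrl cells and 0 in every shAC007128.1 sample, at least 13.8-fold lower against a floor of 3 counts per library, or at least 3.45-fold if 4 counts stand for 1 fragment. In the other direction, LUM, TPM2 and CALD1, named after their values were seen, rose by 2.14, 1.28 and 1.02 on the log2 scale (edgeR adjusted p = 0.00193, 0.0042 and 0.00451).

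Among 19 other transcription factors linked to EMT, 13 were tested, 4 rose, 2 fell and 7 did not pass (46.2% passing, beside 40.8% of all genes, median log2FC 0.06), and GSC, TBXT and TWIST2 were at 0 in all 6 samples. ETS1, an ETS factor, went from 369 ± 2.67 to 218 ± 18.8 CPM (SD, n = 3), a log2FC of -0.76 (edgeR adjusted p = 0.000322). HMGA2, a chromatin protein that acts upstream of Snail and Twist, went from 96.1 ± 5.20 to 156 ± 11.8 CPM, a log2FC of 0.70 (edgeR adjusted p = 0.000667). SOX9, which cooperates with Slug, had a log2FC of -0.50 (edgeR adjusted p = 0.00111).

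TGF-β is a main inducer of Snail and ZEB factors, and the list of its pathway holds ligands, receptors and SMADs as well as inhibitors. Of 19 tested, 7 rose, 5 fell and 7 did not pass (63.2% passing, beside 40.8% of all genes), with a median log2FC of -0.003. SKI, a corepressor that inhibits SMAD signalling, went from 72.9 ± 0.897 to 145 ± 1.72 CPM (SD, n = 3), 199.6% of control (edgeR adjusted p = 5.39e-05). LTBP4, a latent TGF-β binding protein, fell from 141 ± 9.48 to 70.8 ± 2.31 CPM (edgeR adjusted p = 0.000115), and SMURF1, a ubiquitin ligase that inhibits the pathway, rose by 0.77 (edgeR adjusted p = 0.000178).

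A further list held partners of β-catenin and genes with related names. Of 20 tested, 5 rose, 1 fell and 14 did not pass, so that 30% passed, beside 40.8% of all genes, with a median log2FC of 0.12. BTRC, the ubiquitin ligase subunit that recognises phosphorylated β-catenin, went from 25.01 ± 1.68 to 43.7 ± 3.68 CPM (SD, n = 3), a log2FC of 0.81 (edgeR adjusted p = 0.000829). CTNNA1, α-catenin, rose by 0.45 on the log2 scale and CTNNBL1, listed for its β-catenin-like name, by 0.41 (edgeR adjusted p = 0.00103 and 0.0043). The WNT target AXIN2, named after its values were seen, was at 0.178 and 0.221 CPM and did not pass (edgeR adjusted p = 0.798).

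Cofactors and regulators of Snail and ZEB proteins included 11 that rose and 3 that fell, with 10 not passing, of 24 tested (median log2FC 0.14). That is 58.3%, beside 40.8% of all genes tested. HDAC1, a deacetylase recruited by Snail, went from 139 ± 3.71 to 238 ± 6.98 CPM (SD, n = 3), a log2FC of 0.77 (edgeR adjusted p = 0.000134). KDM1A, the histone demethylase LSD1 that the Snail domain binds, went from 122 ± 4.49 to 214 ± 8.83 CPM, a log2FC of 0.82 (edgeR adjusted p = 0.000147). PAK1, a kinase that phosphorylates Snail, had a log2FC of 0.78 (edgeR adjusted p = 0.000162). The 3 that fell, named after their values were seen, were CSNK1E, CTBP2 and LATS2, with log2FC values of -0.69, -0.41 and -0.25 (edgeR adjusted p = 0.00081, 0.0309 and 0.0397).

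Of 9 fibronectin receptors, 6 were tested, 2 rose, 2 fell and 2 did not pass (66.7% passing, beside 40.8% of all genes). SDC4, a heparan sulfate proteoglycan that binds fibronectin, went from 359 ± 9.95 to 179 ± 8.98 CPM (SD, n = 3), 49.96% of control (edgeR adjusted p = 6.13e-05). ITGB6, the β subunit of the epithelial integrin αvβ6, had 5.86, 4.81 and 6.19 CPM in shCtrl and 15.2, 16.4 and 16.4 CPM in shAC007128.1 cells, a log2FC of 1.51 (SE 0.14, edgeR adjusted p = 0.000227). ITGB1, the β1 integrin subunit, went from 379 ± 27.0 to 644 ± 93.7 CPM, a log2FC of 0.76 (edgeR adjusted p = 0.00156).

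**Figure D4:**
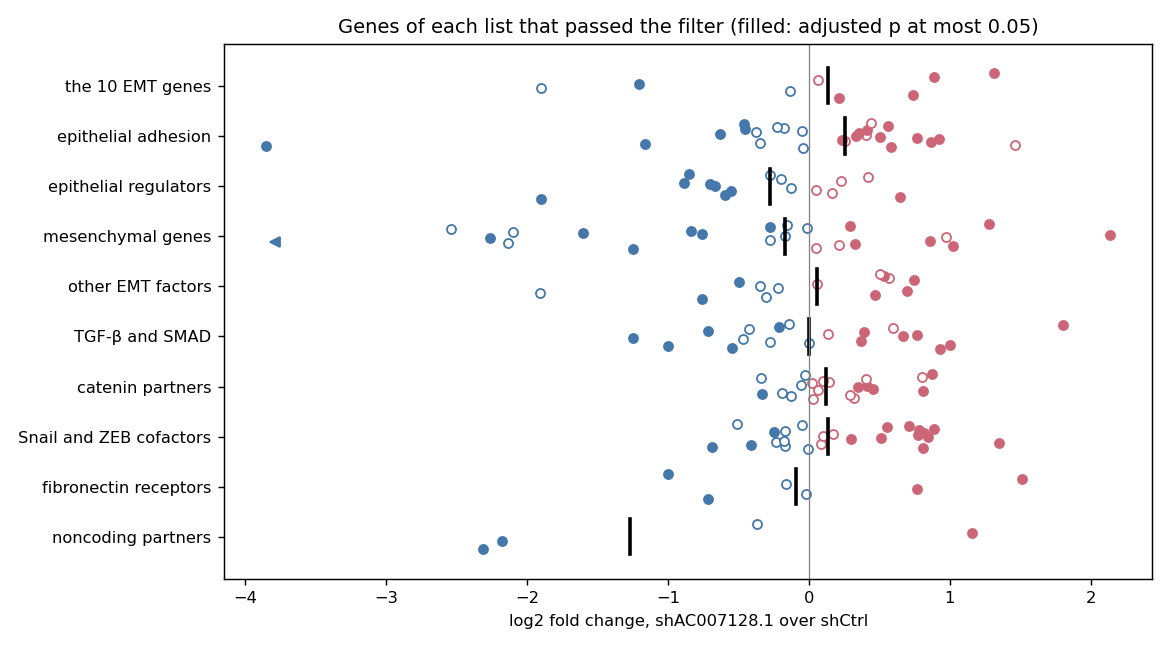
Log2 fold change, shAC007128.1 over shCtrl (horizontal axis), of every gene of each list that passed the filter, with 1 point a gene, filled where the edgeR adjusted p is at most 0.05, red above 0 and blue below, and black bars for the list medians. The left-pointing triangle is COL6A3, drawn at its bound of -3.79 because it had 0 counts in every shAC007128.1 sample. Every list has filled points on both sides of 0.

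For the gene with the largest rise and the one with the largest fall, the genes with the most similar profile of log2 CPM over the 6 samples were sought among 12435 genes. For ZEB1 they were NMI (Pearson's r = 0.9998), MTOR (0.9996) and FBXO45 (0.9994), with log2FC values of 0.85, 0.36 and 0.51. For SNAI2 they were DLG1 (Pearson's r = 0.9992), FGF2 (0.9992) and IDUA (0.9991), with log2FC values of -1.02, -1.04 and -1.03. All 6 points of each comparison come from the same libraries, and most of each correlation is the shared difference between the groups.

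The promoters of the EMT genes were read for the E-box that Snail and ZEB factors bind, CAGGTG on either strand (its reverse complement is CACCTG), in RefSeq windows of 250 bases before to 50 bases after a start (GRCh38.p14). Windows were given for 6 of the 10 genes. None was given for CDH1, SNAI1, SNAI2 or TWIST1, so their promoters were not read. Among the 6, the box was found in ZEB1 only, 3 times at chr10:31318966-31319265 and 1 time at chr10:31318167-31318466, out of 7 ZEB1 windows. ZEB1 had more windows than any other gene read, and so more places for a box to occur. Of 35116 windows of that length, 20.6% held the box and 0.64% held 3 or more. The windows of ZEB2, FN1, CTNNB1, VIM and CDH2 held none.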

How the data were processed

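RNA of 3 shCtrl and 3 shAC007128.1 samples of KYSE150 cells was analysed from the deposited table of estimated counts per Ensembl gene, whole numbers without normalization. Reads had been cleaned of rRNA, adapters and low quality by the authors and mapped to hg38 with TopHat. The submitters' processing notes name CASAVA 1.8 and TopHat2 2.0.6. The counting program, its annotation and its use of strand are not given in the sources used here. Shared exons can therefore move reads between genes. The labels' treatment text is the same for both groups, so groups come from the sample descriptions.

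GENCODE v44 (hg38) gave symbols, positions and exon lengths for 60357 of 67140 identifiers (89.9%). Counts were filtered with filterByExpr (19254 genes kept, 47886 identifiers not), scaled by TMM (factors 0.967 to 1.042) and tested with glmQLFit and glmQLFTest in edgeR 4.0.16 (R 4.3.3), with Benjamini-Hochberg adjustment over all genes tested. The SE of a log2 fold change (log2FC) was taken as log2FC over the square root of its F value. Similarity between genes used log2 CPM with a prior count of 2. A floor of 3 counts per library covers counting error only. On simulated counts, the edgeR step called 185 of 195 changed genes (94.9%) and 16 of 19086 unchanged genes. Far fewer genes were changed there than the 7861 called in these data, so the simulation does not cover a background this wide.

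The 10 genes and the other lists were chosen with earlier results of these data known. Named are the 10 genes, the 3 genes with the smallest p in each list among those that passed with groups that did not overlap, and the 3 genes most similar to the largest rise and the largest fall. A few genes that the rule names are left out here. Cell type marker lists are summarised by their sums and calls. CD68, COL1A1, LUM, PDGFRB, PTPRC, CDH5, PECAM1 and VWF are also named outside the rule. Alternatives were DESeq2 1.42.0, limma-voom (limma 3.58.1), DESeq2 size factors within edgeR, scaling by library size only, leaving out the filter, a minimum of 10 counts in every sample, the replicate block, counts divided by 4, glmTreat against a fold of 1.5, each sample left out in turn, and longest transcript in place of all exons for levels per kilobase.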

Additional observations from a re-analysis of the deposited data

How the results depend on the processing

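Over the log2FCs of single genes, 500 values under alternatives kept their direction and their side of the threshold, 19 lost the call and 2 changed sign (TWIST1, -0.009 with library size only and -0.196 without shAC007128.1 replicate 1, its leave-one-out range being -0.196 to 0.231). Testing against a fold of 1.5 (glmTreat) left 1193 genes higher, 1518 lower and 2 EMT genes higher, since CDH1 and VIM no longer passed under a test that asks for a larger change by construction. Of the listed genes, VIM-AS1 also lost its call without shCtrl replicate 2 (edgeR adjusted p = 0.0512). Leaving out each sample in turn gave 3092 to 4306 genes higher and 2854 to 4152 lower, and 3 to 4 EMT genes higher with 1 lower. With the longest transcript as length, CTNNB1 ranked 2 and SNAI2 ranked 3 in both groups. In shCtrl cells that is the reverse of the order by all exons, so the change of places between groups was absent.

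Same-numbered samples did not deviate together (correlations of 0.031, -0.025 and -0.03), so no shared effect of replicate number was seen. Whether same-numbered samples were handled as pairs is not given in the labels. In the fit with replicate number as a block, 3524 genes were higher and 3256 lower, 3 EMT genes were higher and 1 lower, and CDH1 had an edgeR adjusted p of 0.0521. SNAI1 passed neither the filter of at least 10 counts in every sample nor that on counts divided by 4. The median log2FC of all genes was -0.15 without the filter and between -0.10 and 0.00 under every other alternative. Depth limits what can be said of CDH2, SNAI1 and ZEB2.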
